A study of Mus musculus with 2 samples.

Results

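The 7 genes Hnf4a, Foxa2, Foxa3, Cebpa, Nr1h3, Id3 and Spic encode transcription regulators of hepatocytes, bile duct cells and liver macrophages, and were followed across the cell classes of 2 single-cell libraries. They were chosen as a fixed list of symbols among 31053 listed genes, and each symbol matched 1 gene in both matrices. The libraries hold YFP-positive cells sorted from livers of untreated mice of the Rb family Triple Knock Out model of liver cancer, 1 from macroscopic lesions and 1 from early lesions. YFP marks cells in which Cre has recombined floxed alleles. Both libraries come from the knockout model, so that no undeleted control was analysed here. Whether the cells of each class carry the deletions was not tested. The early library is a pool of 3 mice, while no number of mice is given for the macroscopic library. The promoter that drives Cre, the ages of the mice and a map from barcodes to mice were not among the labels.

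HNF4A is a nuclear receptor and a central activator of the hepatocyte programme. The forkhead proteins FOXA2 and FOXA3 open chromatin at liver genes, and FOXA2 is also found in bile duct epithelium. CEBPA is a leucine zipper factor that acts both in hepatocytes and in cells of the myeloid lineage. NR1H3, or liver X receptor alpha, is an oxysterol receptor that helps to set the identity of Kupffer cells, the resident macrophages of the liver. ID3 binds E proteins and keeps them from DNA, and SPIC is an Ets factor of iron-recycling macrophages in spleen, marrow and liver.

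Barcodes with at least 1000 unique molecular identifiers (UMIs, each standing for 1 captured RNA molecule) were placed in classes by raw UMIs of a few marker genes. A hepatocyte barcode had at least 0.5% of its UMIs from Alb, a duct barcode at least 2 UMIs of Krt19 and Krt7 together, and a T cell barcode at least 2 of Cd3e and Trbc2. A Kupffer barcode had at least 3 UMIs of Clec4f, Cd5l and Marco, and an other-macrophage barcode at least 3 of Gpnmb and Mmp12. The macroscopic library kept 241 barcodes with a median of 14223 UMIs, and the early library 2620 with a median of 2946. In the macroscopic library 103 barcodes were hepatocyte, 20 T cell, 12 other macrophage, 4 Kupffer and 1 duct. In the early library 101 were duct, 67 hepatocyte, 1932 Kupffer, 296 other macrophage and 76 T cell. Barcodes that passed no gate numbered 106 in the macroscopic and 263 in the early library. Some passed more than 1 gate: 10 early barcodes were both duct and hepatocyte, and 96 both Kupffer and other macrophage. In the macroscopic library 3 of the 4 Kupffer barcodes were also other macrophage, so the levels of these classes are not from separate barcodes. The libraries shared 0 barcodes. Levels are given in CPM, the UMIs of a gene per 1000000 UMIs of the summed barcodes. Over all kept barcodes Rb1 stood at 11.4 CPM in the macroscopic and 26.7 CPM in the early library, and Rbl2 at 9.09 and 25.2 CPM, but a 3' count outside the deleted part does not check the knockout. Xist had 0 UMIs in the macroscopic and 10149 in the early library, whereas the Y-linked gene Ddx3y had 275 and 0, so stage and sex cannot be told apart.

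Markers that the gates did not use had their highest early sums in the class of their name, though several lists were shared between classes. The summed level of 15 hepatocyte markers was 56893 CPM in macroscopic and 58162 CPM in early hepatocyte barcodes, 6920 CPM in early duct barcodes and 1265 CPM in early Kupffer barcodes. In T cell barcodes it was 730 CPM in macroscopic and 124 CPM in early lesions, and in macroscopic other-macrophage barcodes of 1 gate 1077 CPM. The 8 endothelial markers summed to 929 CPM in macroscopic and 77.5 CPM in early T cell barcodes. The Kupffer list summed to 24949 CPM in early Kupffer barcodes and 9246 CPM in early other-macrophage barcodes, with all 12 of its markers detected in both, and to 15724 CPM in the single-gate macroscopic other-macrophage barcodes. The other-macrophage list summed to 60067 CPM in early other-macrophage, 8939 CPM in early Kupffer and 28227 CPM in early duct barcodes. The T cell list summed to 5177 CPM in macroscopic and 7284 CPM in early T cell barcodes and to at most 142 CPM in the other gated classes. The duct list summed to 36174 CPM in early duct, 3883 CPM in early hepatocyte and 64.1 CPM in early Kupffer barcodes. Spp1, which is on both the duct and the other-macrophage list, accounted for 26508 CPM of both lists in early duct barcodes.

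The genes lie on 4 chromosomes (GRCm38, GENCODE M21). Hnf4a (chr2:163506808-163572910, plus strand), Foxa2 (chr2:148042877-148046969, minus) and Nr1h3 (chr2:91184061-91202834, minus) are on chromosome 2. Foxa3 (chr7:19013284-19023538, minus) and Cebpa (chr7:35119293-35121928, plus) are on chromosome 7, Id3 (chr4:136143497-136145755, plus) on chromosome 4 and Spic (chr10:88674772-88685015, minus) on chromosome 10. Hnf4a overlaps the counted gene Hnf4aos and Cebpa overlaps Gm45091, each on the opposite strand. No source used here says how counting used the strand, so the counts of these 2 genes may include reads of their partners.

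RefSeq (GRCm38.p6) gives 11 promoter windows for the 7 genes, each from 250 bases before to 50 bases after a start. These promoters are shown because Hnf4a has 2 annotated starts that 3' counts cannot tell apart, because Cebpa was at high levels in both hepatocytes and macrophages, and because Spic had no UMI in early hepatocyte or duct barcodes. Each is written 5′ to 3′ on the gene's strand with CpG dinucleotides in capitals.
Hnf4a, upstream start, chr2:163506607-163506906: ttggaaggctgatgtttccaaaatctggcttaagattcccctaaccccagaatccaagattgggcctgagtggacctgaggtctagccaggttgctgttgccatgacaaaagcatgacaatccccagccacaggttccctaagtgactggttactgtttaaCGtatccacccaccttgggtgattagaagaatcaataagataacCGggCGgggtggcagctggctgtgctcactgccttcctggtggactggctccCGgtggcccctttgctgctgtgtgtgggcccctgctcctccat
Hnf4a, downstream start, chr2:163546905-163547204: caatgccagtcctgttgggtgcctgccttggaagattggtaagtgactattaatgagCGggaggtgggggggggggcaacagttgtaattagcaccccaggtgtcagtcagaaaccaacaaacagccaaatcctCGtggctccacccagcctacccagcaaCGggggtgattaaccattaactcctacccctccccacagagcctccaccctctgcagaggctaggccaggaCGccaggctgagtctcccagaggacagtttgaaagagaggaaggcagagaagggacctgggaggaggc
Cebpa, chr7:35119043-35119342: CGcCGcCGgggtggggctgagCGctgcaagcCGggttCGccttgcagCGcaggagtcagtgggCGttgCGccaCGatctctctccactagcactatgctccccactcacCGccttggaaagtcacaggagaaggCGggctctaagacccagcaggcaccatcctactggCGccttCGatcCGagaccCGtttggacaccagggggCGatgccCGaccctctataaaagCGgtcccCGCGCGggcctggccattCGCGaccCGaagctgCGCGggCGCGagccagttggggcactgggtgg
Spic, chr10:88682974-88683273, minus strand: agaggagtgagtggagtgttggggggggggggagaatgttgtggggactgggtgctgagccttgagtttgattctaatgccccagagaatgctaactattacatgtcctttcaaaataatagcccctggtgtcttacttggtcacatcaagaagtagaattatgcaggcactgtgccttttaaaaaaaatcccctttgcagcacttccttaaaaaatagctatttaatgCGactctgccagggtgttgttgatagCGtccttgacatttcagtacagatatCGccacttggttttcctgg

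The Cebpa window holds 29 CpG dinucleotides at 67.3% GC and the Spic window 3 at 45% GC. Each Hnf4a window holds 4, and the median over 32851 windows is 7 at 52.7% GC. The letters of 8 motifs were searched on both strands, and no window of the 7 genes held matches to more than 1 of them. No window held the letters for HNF4 (CAAAGTCC, in 1.42% of all windows), HNF1 (0.399%), FOXA (TGTTTAC, 3.65%) or CEBP (TTGCNNAA, 10.8%). The E-box CACGTG (7.15%) and the liver X receptor direct repeat (0.0152%) were also without a match. A PU.1 motif (GAGGAAGT, 3.20%) occurred at 1 of the 3 Foxa2 starts, and the GC-rich SMAD motif GGCGCC (11.9%) in windows of Foxa2, Foxa3, Cebpa and Nr1h3, 3 times in that of Foxa3. A match is a run of letters, not a shown binding site, and its absence holds for these windows alone. All windows of Nr1h3, Id3 and Spic lie inside the gene spans given above, so they do not cover the upstream ends of those spans.

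**Figure D1:**
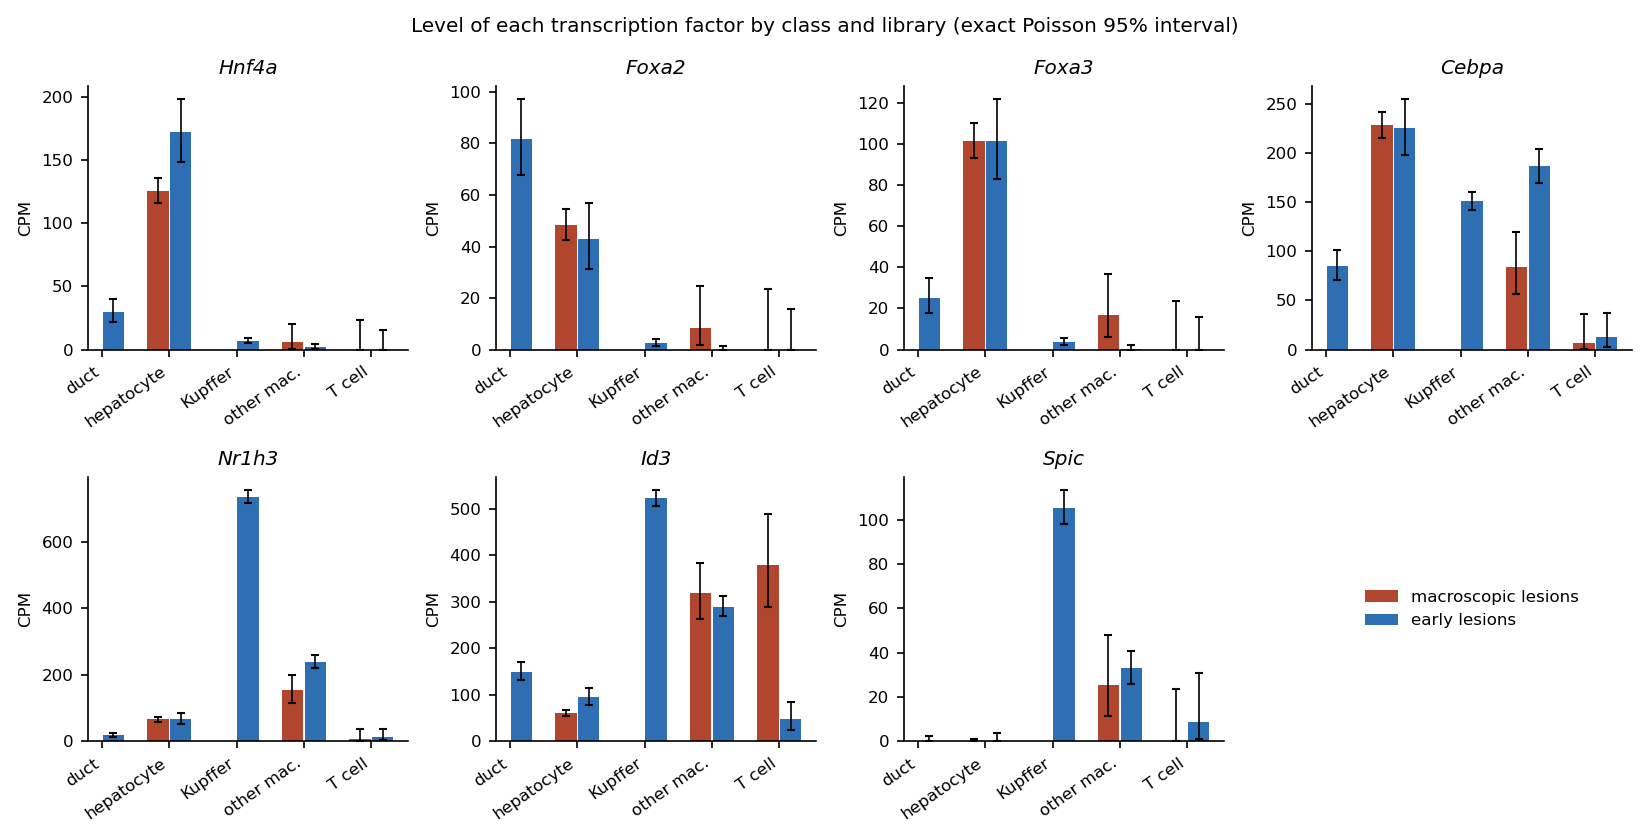
Level of each gene in CPM (linear axis from 0) by class, macroscopic lesions to the left of early lesions, with exact Poisson 95% intervals. The macroscopic duct and Kupffer classes (1 and 4 barcodes) are not drawn; Hnf4a and Foxa3 are highest in hepatocyte, Foxa2 in duct, and Nr1h3, Id3 and Spic in Kupffer barcodes of the early library.

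Hnf4a and Foxa3 were concentrated in hepatocyte barcodes of both libraries. In macroscopic lesions Hnf4a stood at 126 CPM (95% interval 116 to 136) in hepatocyte barcodes, at 5.6 CPM in the other-macrophage class (2 UMIs, both in 1 barcode) and at 0 in T cell barcodes, where 0 UMIs allow up to 19.2 CPM. In early lesions it stood at 29.9 CPM (21.8 to 40.0) in duct, 172 (148 to 199) in hepatocyte, 7.06 (5.22 to 9.33) in Kupffer and 1.64 (0.447 to 4.20) in other-macrophage barcodes, and at 0 in T cell barcodes (limit 12.8 CPM). The intervals of these 4 early classes with UMIs do not overlap, with hepatocyte on top, then duct, Kupffer and other macrophage. The classes share barcodes, though, 96 of them between Kupffer and other macrophage. The 197 barcodes in the other-macrophage gate alone held 0 Hnf4a UMIs (limit 1.87 CPM). All intervals here cover counting error only, since each stage has 1 library and no spread between animals can be given.

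Foxa3 followed the same order. It stood at 102 CPM (93.1 to 111) in macroscopic hepatocyte barcodes and at 25.2 (17.9 to 34.6), 101 (83.2 to 122) and 3.74 (2.45 to 5.49) in early duct, hepatocyte and Kupffer barcodes. In the macroscopic other-macrophage class all 6 Foxa3 UMIs lay in 1 of the 12 barcodes. Of all Hnf4a UMIs, barcodes in the hepatocyte gate alone held 96.5% in the macroscopic library, where they hold 71.1% of all UMIs, and 64.5% in the early library, where they hold 7.65%.

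Foxa2 had another order, with the duct class on top. Its level was 81.7 CPM (67.9 to 97.5) in early duct barcodes, 42.7 (31.3 to 57.0) in early hepatocyte barcodes and 48.4 (42.6 to 54.7) in macroscopic hepatocyte barcodes. It stood at 2.45 CPM (1.43 to 3.92) in early Kupffer barcodes and at 0 in early other-macrophage (limit 1.23 CPM) and T cell barcodes (limit 12.8 CPM). The 1 macroscopic duct barcode held 1 Foxa2 UMI.

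As shares of barcodes with a UMI, Hnf4a was seen in 58.3% (48.1 to 67.9) of macroscopic and 65.7% (53.1 to 76.8) of early hepatocyte barcodes, at median depths of 23459 and 15463 UMIs. In T cell barcodes, which should lack it, it was seen in 0 of 20 and 0 of 76, at 7641 and 2678 UMIs, where the limit of 3 counts allows shares of up to 15% and 3.95% of barcodes with a UMI, which is no limit on cells that express it at low level. With every barcode thinned to 1000 UMIs the hepatocyte shares were 8.74% and 11.9%. Foxa2 at that depth was seen in 10.9% of early duct and 5.97% of early hepatocyte barcodes, and without thinning in 56.4% and 41.8%.

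Ratios between classes were taken over barcodes that pass 1 gate only, with an exact 95% interval, and a gene was called at a CPM ratio of at least 2 in either direction. Of the 7 genes in early hepatocyte over early Kupffer barcodes, 3 were called higher and 3 lower, against 28.5% and 25.3% of all measured genes. Hnf4a stood at 189 CPM in hepatocyte and 6.59 CPM in Kupffer barcodes (ratio 28.6, 20.2 to 41.4), Foxa2 at 39.6 and 1.81 CPM (21.9, 10.9 to 47.5) and Foxa3 at 109 and 3.79 CPM (28.8, 18.2 to 47.5). The 40 Hnf4a UMIs of Kupffer barcodes came with 1483 Alb UMIs, or 27.0 Hnf4a UMIs per 1000 of Alb, against 8.47 in early hepatocyte barcodes. Alb is the gate gene of the hepatocyte class, and single-gate Kupffer barcodes hold less than 0.5% of it. The gate itself thus shifts this ratio, and nothing is read from it about free RNA. The part of free RNA in these Kupffer counts was not tested.

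In early duct over early hepatocyte barcodes 1 of 6 measured genes was called higher and 4 lower, against 28.4% and 10.7% of all measured genes. Foxa2 was the gene called higher, at 85.6 CPM in duct and 39.6 CPM in hepatocyte barcodes (ratio 2.16, 1.48 to 3.22), and with barcodes of several gates kept its log2 ratio was 0.93, inside 2-fold. Hnf4a stood at 29.3 and 189 CPM (0.155, 0.107 to 0.221), Foxa3 at 23.3 and 109 CPM (0.213, 0.138 to 0.321), and Nr1h3 and Cebpa were also lower. All measured genes had a median log2 ratio of 0.47 in this comparison. Relative to it Foxa2 stood at 0.64 on the log2 scale, also inside 2-fold, whereas the 4 lower calls stayed past it, and the split of all genes changed to 1726 higher and 1638 lower, against 2795 and 1048 unscaled. Against Kupffer barcodes, duct barcodes had 3 genes called higher and 3 lower, with 38% and 15.9% of all measured genes called (3920 and 1640 genes; 2584 and 2468 relative to the median of 0.59). Foxa2 differed most among the higher ones (47.2-fold, 25.4 to 97.3), above Foxa3 (6.14, 3.47 to 11.03) and Hnf4a (4.44, 2.78 to 7.09).

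**Figure D2:**
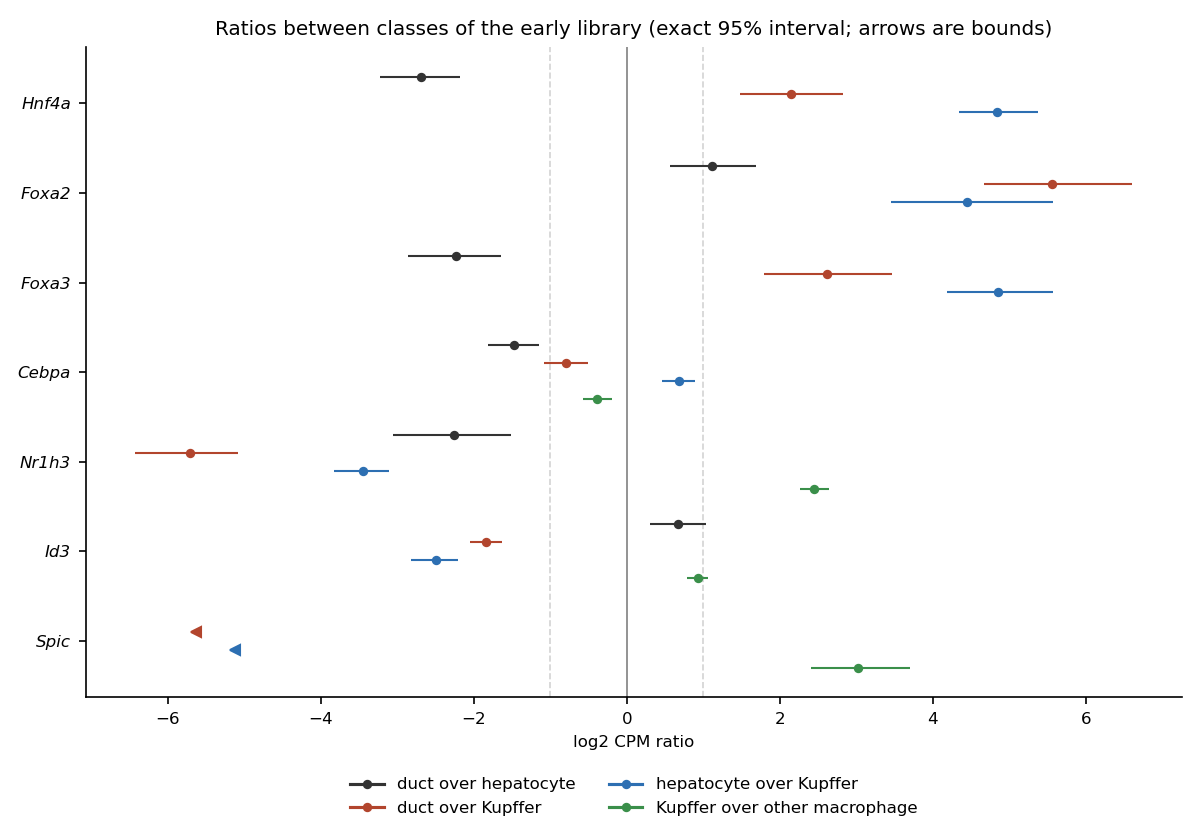
Log2 CPM ratios of the 7 genes between classes of the early library with exact 95% intervals; dashed lines mark 2-fold and arrows mark bounds where a sum is 0. Hnf4a and Foxa3 lie left of 0 for duct over hepatocyte and Foxa2 lies right of it; for hepatocyte over Kupffer, Hnf4a, Foxa2 and Foxa3 lie near 4 to 5.

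Other factors and targets of the hepatocyte programme were listed for context. Of 27 further hepatocyte transcription factors, 20 were measured in early hepatocyte over Kupffer barcodes, of which 16 were at least 2-fold higher and 3 lower (28.5% and 25.3% of all genes), with a median log2 ratio of 4.80 against 0.11 for all genes. Creb3l3, a factor of fasting metabolism, stood at 324 CPM in hepatocyte and 7.09 CPM in Kupffer barcodes, while Cebpb stood at 395 and 829 CPM. In duct over hepatocyte barcodes 22 of these 27 were measured, with 7 higher and 8 lower, against 28.4% and 10.7% of all measured genes. Onecut2 (648 and 166 CPM) and Hhex (578 and 127 CPM), both regulators of liver development, were among the higher ones. The related forkhead gene Foxa1 stood at 39.1 CPM in duct and 18.2 CPM in hepatocyte barcodes (2.14-fold, 1.22 to 3.96).

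Of 24 measured target genes of HNF4A, FOXA and CEBPA, 0 were at least 2-fold higher and 22 lower in duct than in hepatocyte barcodes, with a median log2 ratio of -5.39 against 0.47 for all genes, of which 28.4% were higher and 10.7% lower. Ttr, the gene of the thyroid hormone carrier transthyretin, stood at 2462 CPM in duct and 7543 CPM in hepatocyte barcodes. Hepatocyte barcodes were picked for Alb, and single-gate duct barcodes hold less than 0.5% of it. How far these gates shift genes that go along with Alb was not tested. Of 15 measured duct transcription factors, 14 were higher and 0 lower, among them Hes1, a Notch target (912 and 42.9 CPM), and Sox9, a regulator of duct identity (755 and 159 CPM). The 10 early barcodes in both gates held Hnf4a at 39.6 CPM (12.8 to 92.3), Foxa2 at 47.5 (17.4 to 103) and Foxa3 at 47.5 CPM (17.4 to 103), from 5, 6 and 6 UMIs. They held Sox9 at 1045 CPM and Alb at 7517 CPM, and whether they are doublets was not tested.

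The hepatocyte gate cuts a continuous range of Alb, so levels were also taken by Alb content in barcodes outside the other 4 gates, a step added after the data were seen. In the macroscopic library Hnf4a stood at 34.1 CPM (13.7 to 70.2) in 13 barcodes with 0.25 to 0.5% Alb, just outside the gate, and at 54.2 CPM (33.5 to 82.8) in 17 barcodes with 0.5 to 1%, just inside. It stood at 92.7, 148 and 161 CPM in the 3 bins above 1%. In the early library the same steps were 58.3 CPM (15.9 to 149) in 11 barcodes, 119 (57.1 to 219) in 7, then 186 and 210 CPM. Cebpa was at 113 CPM in macroscopic and 96.3 CPM in early barcodes below 0.1% Alb, where Hnf4a was at 12.3 CPM and 0.

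**Figure D3:**
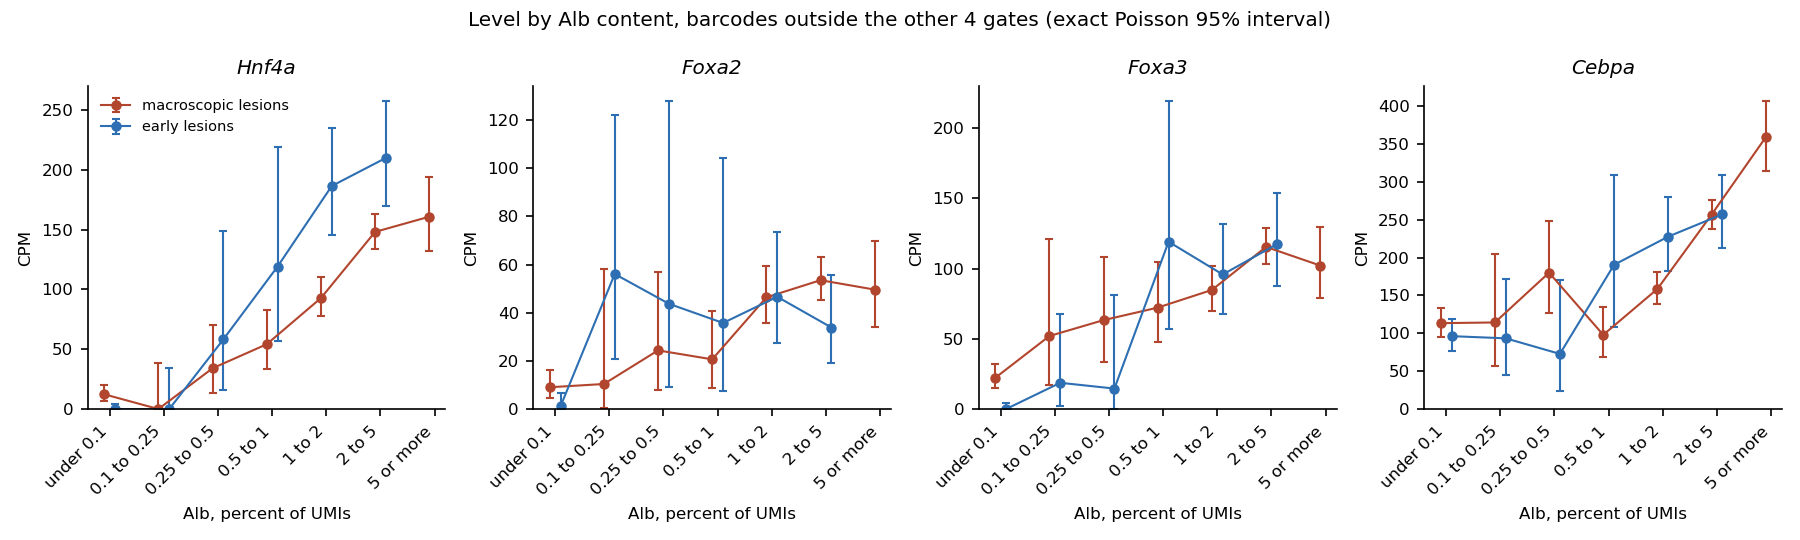
CPM of Hnf4a, Foxa2, Foxa3 and Cebpa (linear axes from 0) by the percent of a barcode's UMIs from Alb, for macroscopic and early lesions, with exact Poisson 95% intervals; the bin of 1 early barcode is not drawn. Hnf4a is higher in each bin above 0.25% Alb than in the bin before it in both libraries, up to 161 CPM in macroscopic and 210 CPM in early lesions.

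Cebpa levels in hepatocyte, Kupffer and other-macrophage barcodes of the early library lay less than 2-fold apart. In macroscopic lesions it stood at 228 CPM (215 to 241) in hepatocyte, 112 (55.9 to 200) in the 4 Kupffer, 83.9 (56.6 to 120) in the 12 other-macrophage and 6.41 (0.162 to 35.7) in T cell barcodes, with 3 barcodes in both macrophage classes. In early lesions it stood at 85.0 CPM (70.9 to 101) in duct, 225 (197 to 255) in hepatocyte, 151 (142 to 161) in Kupffer, 186 (169 to 204) in other-macrophage and 12.8 (2.64 to 37.4) in T cell barcodes. Hepatocyte and other-macrophage levels of the early library overlapped narrowly, and T cell barcodes held 1 macroscopic and 3 early UMIs. Barcodes in the T cell gate alone held 0 of the 3 early ones. Over single-gate barcodes the hepatocyte-over-Kupffer ratio was 1.60 (1.38 to 1.86) and the duct-over-hepatocyte ratio 0.360 (0.285 to 0.453), from 86.4 and 240 CPM.

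Cebpb and Cebpd were lower in hepatocyte than in Kupffer barcodes. In early hepatocyte over Kupffer barcodes Cebpd, a factor of acute-phase and inflammatory responses, stood at 15.0 and 80.8 CPM (0.186, 0.101 to 0.315) and Cebpb at 395 and 829 CPM (0.477, 0.428 to 0.530). In Kupffer over other-macrophage barcodes Cebpd stood at 80.8 and 15.0 CPM (5.39, 3.58 to 8.50), whereas Cebpa stood at 150 and 196 CPM (0.764, 0.671 to 0.871).

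Nr1h3, Id3 and Spic had their highest early levels in Kupffer barcodes. Nr1h3 stood at 17.3 CPM (11.3 to 25.3) in duct, 66.0 (51.5 to 83.2) in hepatocyte, 737 (717 to 757) in Kupffer, 238 (219 to 258) in other-macrophage and 12.8 (2.64 to 37.4) in T cell barcodes of the early library. The Kupffer interval lies above all others, and those of duct and T cell barcodes overlap. In macroscopic lesions it stood at 65.7 CPM (58.9 to 73.0) in hepatocyte, 315 (214 to 448) in 4 Kupffer, 154 (116 to 200) in 12 other-macrophage and 6.41 (0.162 to 35.7) in T cell barcodes, with 3 barcodes in both macrophage classes. It was seen in 83.8% (82.1 to 85.4) of early Kupffer barcodes at a median of 2557 UMIs and in 3.95% (0.822 to 11.1) of T cell barcodes at 2678 UMIs.

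Spic had UMIs in 3 of the 5 early classes. It stood at 106 CPM (98.0 to 113) in Kupffer, 32.8 (26.0 to 40.8) in other-macrophage and 8.54 (1.03 to 30.8) in T cell barcodes, the last from 2 UMIs. Barcodes in the T cell gate alone held 0 Spic UMIs, so both lay in barcodes that also pass another gate. In duct and hepatocyte barcodes it was at 0, with limits of 1.99 and 2.79 CPM. In the macroscopic library 26 Spic UMIs were counted in all, 13 in the 4 Kupffer barcodes (11 of them in 1), and 1 in the 103 hepatocyte barcodes. It was seen in 27.2% (25.3 to 29.3) of early Kupffer barcodes, 16.6% (12.5 to 21.3) of other-macrophage and 2.63% (0.320 to 9.18) of T cell barcodes. The other-macrophage class shares 96 barcodes with the Kupffer class. Over the 197 other-macrophage barcodes of 1 gate the Spic level was 13.7 CPM. It was seen in 8% of the 100 of these with Nr1h3 and in 8.25% of the 97 without it.

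Of the 4 genes measured in early Kupffer over other-macrophage barcodes, 2 were called higher and 0 lower, against 21.9% and 7.32% of all measured genes (1815 and 608 genes; 1199 and 956 relative to the median log2 ratio of 0.33). Spic stood at 111 CPM in Kupffer and 13.7 CPM in other-macrophage barcodes (8.11-fold, 5.31 to 13.0), and Nr1h3 at 784 and 144 CPM (5.46-fold, 4.79 to 6.27). Id3 stood at 557 and 293 CPM (1.90, 1.72 to 2.10). With the 96 barcodes of both gates in both sums, the log2 ratios were 1.69 for Spic and 1.63 for Nr1h3, still past 2-fold. In early hepatocyte over Kupffer barcodes Nr1h3 stood at 71.8 and 784 CPM (0.0915, 0.0708 to 0.116) and Id3 at 98.6 and 557 CPM (0.177, 0.142 to 0.218). Spic, with 0 UMIs in hepatocyte barcodes, was at least 34.6-fold lower than in Kupffer barcodes, taking a floor of 3 counts over the hepatocyte sum.

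Genes linked to these factors were listed for context. Of 10 iron-handling and adhesion genes linked to SPIC, 5 were at least 2-fold higher and 1 lower in Kupffer than in other-macrophage barcodes, with a median log2 ratio of 1.27. All measured genes had a median of 0.33 there, with 21.9% higher and 7.32% lower. Slc40a1, the iron exporter ferroportin, stood at 2239 CPM in Kupffer and 71.1 CPM in other-macrophage barcodes (31.5-fold, 26.2 to 38.2), and Hmox1, which degrades haem, at 2244 and 253 CPM. The gene called lower was Fth1, the ferritin heavy chain, at 9101 and 32125 CPM. Spi1, which encodes the related factor PU.1, stood at 377 and 401 CPM (0.941, 0.862 to 1.03).

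Of 17 measured targets and partners of the liver X receptor, 9 were higher and 1 lower in the same comparison. Of all measured genes 21.9% were higher and 7.32% lower. The median log2 ratio was 1.24 for the list and 0.33 for all measured genes. Abca1, a cholesterol exporter, stood at 337 and 70.5 CPM (4.78-fold, 3.95 to 5.83), and Pltp, a phospholipid transfer protein, at 527 and 104 CPM (5.09-fold, 4.36 to 5.99). Apoe was the gene called lower, at 12726 CPM in Kupffer and 29280 CPM in other-macrophage barcodes. The second liver X receptor gene, Nr1h2, stood at 56.5 and 50.5 CPM (1.12, 0.876 to 1.44). The receptor partner Rxra stood at 223 and 44.9 CPM (4.96-fold, 3.92 to 6.38).

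Id3 had its highest early level in Kupffer barcodes but was also present in duct, hepatocyte and T cell barcodes. In the early library it stood at 149 CPM (131 to 170) in duct, 93.9 (76.5 to 114) in hepatocyte, 523 (506 to 540) in Kupffer, 289 (268 to 312) in other-macrophage and 47.0 (23.4 to 84.0) in T cell barcodes. Only the hepatocyte and T cell intervals overlap. In macroscopic lesions it stood at 60.0 CPM (53.5 to 67.0) in hepatocyte, 1821 in Kupffer, 319 in other-macrophage and 378 CPM in T cell barcodes. Its UMIs were uneven there: 104 of the 114 UMIs of the other-macrophage class and 104 of the 179 of the Kupffer class sat in 1 barcode, and 37 of the 59 of the T cell class in another. Without the barcode of 104 UMIs the other-macrophage level was 30.6 CPM (14.7 to 56.3), and the Kupffer level, from 3 barcodes, 1111 CPM (874 to 1393). Of all 1144 macroscopic Id3 UMIs, 582 (50.9%) lay in the 106 barcodes that passed no gate, which hold 20.9% of all UMIs.

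Among the ID and E proteins, Id2, another inhibitor of E proteins, stood at 1049 CPM in early duct and 465 CPM in hepatocyte barcodes (2.26-fold, 2.02 to 2.52), and Id3 at 156 and 98.6 CPM (1.59, 1.23 to 2.05). Tcf4, an E protein, was higher in Kupffer than in other-macrophage barcodes, at 123 and 47.4 CPM (2.59-fold, 2.05 to 3.33). Of the 5 measured genes of this list 3 were higher and 0 lower there, against 21.9% and 7.32% of all measured genes.

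Nr1h3, Id3 and Spic were seen together in 18.5% of 1830 single-gate Kupffer barcodes and in 2.54% of 197 other-macrophage barcodes, and in 3.44% and 0% after thinning to 1000 UMIs. After thinning, Spic was seen in 12.6% of the 1060 Kupffer barcodes with Nr1h3 and in 11.4% of the 770 without it. Without thinning these shares were 28.3% of 1538 and 19.9% of 292.

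Early Kupffer barcodes were also split by Clec4f, a lectin of resident Kupffer cells. Clec4f is 1 of the 3 gate genes, so the 38 barcodes without it entered the class on Cd5l and Marco alone, and the values are a description of the gate from which nothing is read about the class. Among the 4 measured here, 3 were called higher in the 1792 barcodes with it and 0 lower (16.5% and 9.95% of all measured genes). Nr1h3 stood at 813 and 170 CPM (4.80-fold, 3.59 to 6.56), Id3 at 577 and 136 CPM (4.23-fold, 3.06 to 6.02) and Spic at 116 and 14.7 CPM (7.85-fold, 3.05 to 28.9), the last from 4 UMIs. Cebpa stood at 149 and 162 CPM (0.919, 0.679 to 1.27). In single-gate other-macrophage barcodes the levels were 144 CPM for Nr1h3, 293 for Id3, 13.7 for Spic and 196 for Cebpa.

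Splits by Cd207, by Fabp7 and by cycling called 0 of the measured genes among the 7. Of all measured genes 0.458% were called higher and 1.15% lower with Cd207, 1.25% and 0.98% with Fabp7, and 10.5% and 6.73% in cycling barcodes. Cycling barcodes had at least 2 UMIs of Mki67 and Top2a together. Spic stood at 106 CPM in 1289 barcodes with Fabp7 and 134 CPM in 541 without it (0.790, 0.659 to 0.952). Cebpa stood at 85.0 CPM in 64 cycling and 155 CPM in 1766 other Kupffer barcodes (0.550, 0.383 to 0.768).

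**Figure D4:**
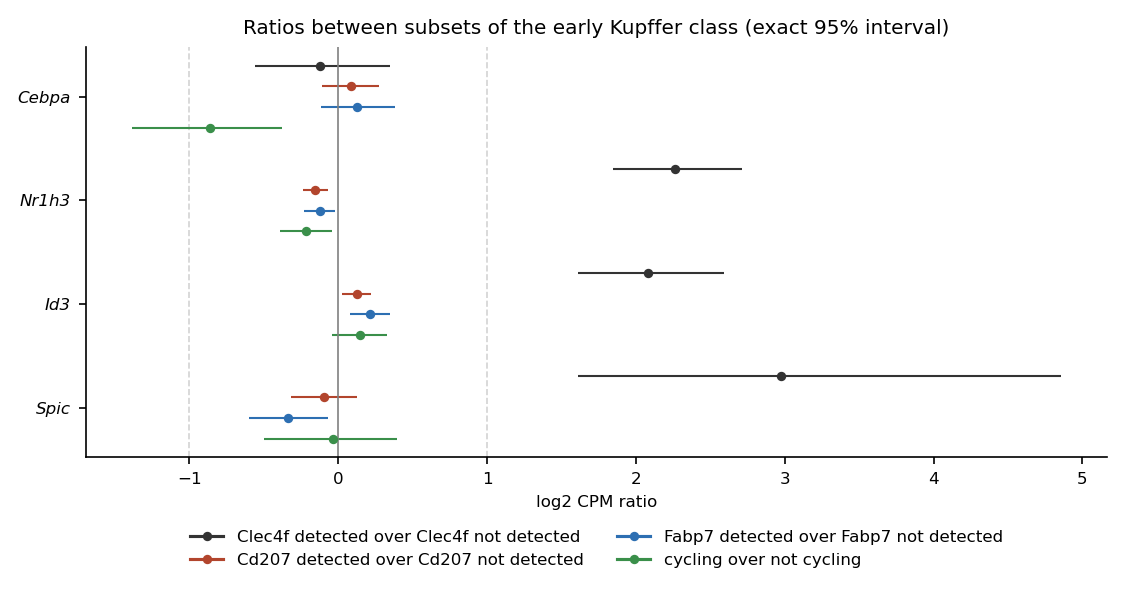
Log2 CPM ratios of Cebpa, Nr1h3, Id3 and Spic between subsets of early Kupffer barcodes with exact 95% intervals; dashed lines mark 2-fold. For Clec4f detected over not detected, Nr1h3, Id3 and Spic lie past 2-fold and Cebpa near 0, while the other splits stay within 2-fold.

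Besides T cells, the hepatocyte class was the only class with at least 10 single-gate barcodes in both libraries. Over single-gate barcodes (101 macroscopic and 54 early), 0 of 6 measured genes were called, against 9.87% higher and 16.8% lower among all measured genes (869 and 1479 genes; 1192 and 995 relative to the median log2 ratio of -0.20). Hnf4a stood at 128 CPM in macroscopic and 189 CPM in early barcodes (0.678, 0.573 to 0.805), and Id3 at 60.8 and 98.6 CPM (0.617, 0.488 to 0.787). For these 2 genes the interval lies below 1. Foxa2 stood at 48.6 and 39.6 CPM (1.23, 0.866 to 1.78), Foxa3 at 102 and 109 CPM (0.936, 0.756 to 1.17), Cebpa at 232 and 240 CPM (0.966, 0.837 to 1.12) and Nr1h3 at 66.0 and 71.8 CPM (0.920, 0.706 to 1.21). With 1 library per stage there is no test, and sex, depth and preparation cannot be told apart from stage.

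Id1 and Id2, relatives of Id3, were both called lower. Id1 stood at 15.7 CPM in macroscopic and 84.6 CPM in early hepatocyte barcodes (0.185, 0.134 to 0.256) and Id2 at 201 and 465 CPM (0.432, 0.385 to 0.484). The Notch target Hes1 stood at 279 and 42.9 CPM (6.51-fold, 4.76 to 9.15). Of 24 measured targets of HNF4A, FOXA and CEBPA, 0 were higher and 9 lower, with a median log2 ratio of -0.64, against 9.87% and 16.8% of all measured genes. Of 13 measured liver X receptor targets and partners, 5 were higher and 0 lower, against the same shares of all genes. Their median log2 ratio was -0.0985, near the -0.20 of all measured genes. Among the higher ones were the desaturase genes Scd1 (744 and 169 CPM) and Scd2 (225 and 32.1 CPM) and the fatty acid synthase gene Fasn (195 and 60.0 CPM).

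The macroscopic hepatocyte class was uneven in Malat1, a nuclear RNA. Of its 101 single-gate barcodes 57 held less than 0.05% Malat1 (median 17200 UMIs), and 44 held more (median 109520 UMIs), against 3 below that share among the 54 early ones. In low-Malat1 over other macroscopic barcodes 0 of 6 genes were called higher and 2 lower, against 1.51% and 46.4% of all measured genes. Hnf4a stood at 32.7 CPM in low-Malat1 and 160 CPM in other barcodes (0.204, 0.146 to 0.278), and Foxa2 at 16.0 and 59.8 CPM (0.267, 0.162 to 0.418). Foxa3 stood at 104 and 102 CPM (1.03, 0.838 to 1.25), Nr1h3 at 61.6 and 67.6 CPM (0.912, 0.701 to 1.17) and Cebpa at 146 and 261 CPM (0.559, 0.477 to 0.653). Over all measured genes the median was -0.82 (log2), and relative to it 2111 genes were higher and 2575 lower, against 126 and 3883 unscaled. On that scale Hnf4a (-1.47) and Foxa2 (-1.08) stayed past 2-fold lower, and Id3, at 73.8 and 56.4 CPM, was past 2-fold higher (1.21).

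Hnf4a and Foxa2 were also lower among cycling barcodes (15 with low Malat1 and 37 others), where 0 genes were called higher and 2 lower, against 3.6% and 42.5% of all genes. Hnf4a stood there at 31.9 and 162 CPM (0.197, 0.107 to 0.334) and Foxa2 at 18.2 and 58.7 CPM (0.311, 0.133 to 0.624). Relative to the median of -0.71, Hnf4a stayed past 2-fold (-1.63) and Foxa2 did not (-0.97), and the split of all genes was 2031 higher and 2231 lower, against 303 and 3575 unscaled. Without low-Malat1 barcodes in either library, the macroscopic-over-early log2 ratio of Hnf4a was -0.25, against -0.56 over all barcodes. Whether low-Malat1 barcodes are whole cells was not tested.

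In cycling over other macroscopic hepatocyte barcodes (52 and 49) 1 of 6 genes was called higher and 0 lower, against 34.3% and 0.689% of all genes. Hnf4a stood at 148 and 54.0 CPM (2.74, 2.09 to 3.64) and Foxa2 at 54.3 and 27.4 CPM (1.98, 1.35 to 3.0), at median depths of 55232.5 and 13627 UMIs. Relative to the median log2 ratio of 0.54 Hnf4a stood at 0.91, inside 2-fold, and the split of all genes was 1428 higher and 712 lower, against 2834 and 57 unscaled. Low-Malat1 barcodes were 15 of the 52 cycling and 42 of the 49 others. Among low-Malat1 barcodes Hnf4a stood at 31.9 CPM in cycling and 33.1 CPM in other barcodes (0.965, 0.471 to 1.89), and among the rest at 162 CPM in 37 cycling and 138 CPM in 7 other barcodes. Among low-Malat1 barcodes 0 of 6 genes were called higher and 1 lower, against 4.1% and 3.48% of all genes. That gene was Id3, at 43.3 CPM in cycling and 89.0 CPM in other barcodes (0.487, 0.278 to 0.812). In the early library (38 and 16 barcodes) Hnf4a stood at 191 and 174 CPM (1.10, 0.715 to 1.75). Id3 was the only 1 of the 6 called there, at 109 and 41.8 CPM (2.60, 1.15 to 7.29, the lower level from 6 UMIs), against 12% of all genes called higher and 3.83% lower (717 and 228 genes; 583 and 327 relative to the median of 0.13).

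**Figure D5:**
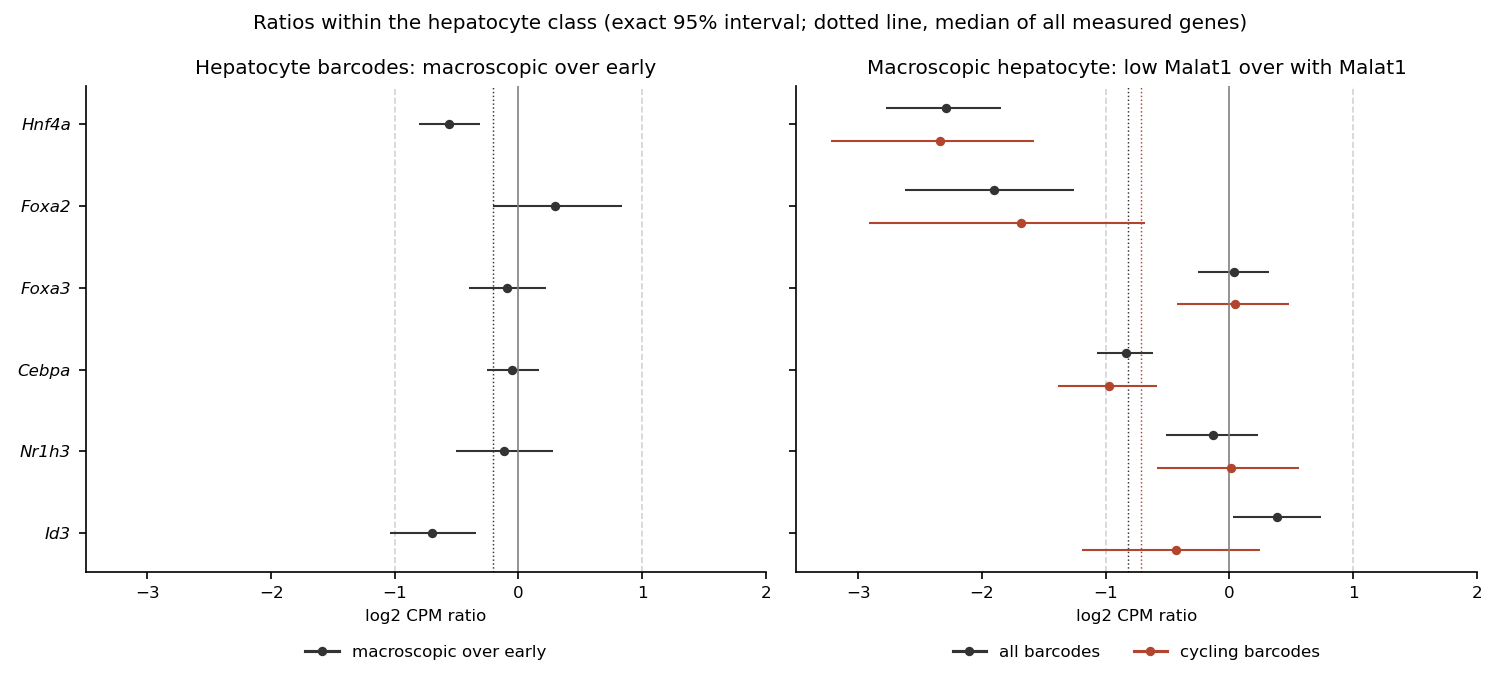
Log2 CPM ratios within the hepatocyte class with exact 95% intervals, macroscopic over early lesions at left and low-Malat1 over other macroscopic barcodes at right; dashed lines mark 2-fold and dotted lines the median of all measured genes. All 6 genes lie within 2-fold between stages, while Hnf4a and Foxa2 lie below -1 in the Malat1 comparison for all and for cycling barcodes (relative to the median, Foxa2 is at -0.97 in cycling ones).

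T cell barcodes served as a reference for the epithelial and macrophage genes. Their sums are small, and 0 UMIs allow up to 19.2 CPM in macroscopic and 15.5 CPM in early single-gate T cell barcodes. Early Kupffer barcodes held Hnf4a at 6.59, Foxa3 at 3.79 and Foxa2 at 1.81 CPM. Free RNA at such levels could not be seen in these T cell sums. In macroscopic hepatocyte over T cell barcodes 5 of 6 genes were called higher and 1 lower, against 25.5% and 25.2% of all measured genes, and in the early library 6 of 6 were called higher, against 33.9% higher and 19.7% lower (2356 genes higher and 1367 lower; 1825 and 1867 relative to the median log2 ratio of 0.37). With 0 UMIs in T cell barcodes, Hnf4a was at least 6.65-fold higher in macroscopic and at least 12.2-fold higher in early hepatocyte barcodes, by the floor of 3 counts over the T cell sum. Foxa3 was at least 5.32-fold and 7.05-fold higher, and Foxa2 at least 2.53-fold and 2.56-fold. Relative to the median the early Foxa2 bound was 0.98 on the log2 scale, just inside 2-fold. The gene called lower in macroscopic lesions was Id3, at 60.8 CPM in hepatocyte and 378 CPM in T cell barcodes.

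The macrophage classes were set against early T cell barcodes in the same way. In Kupffer over T cell barcodes 4 of 4 measured genes were called higher, against 23% higher and 21.5% lower among all measured genes. Nr1h3 stood at 784 and 10.3 CPM (75.9-fold, 21.0 to 627, the T cell level from 2 UMIs), Id3 at 557 and 31.0 CPM (18.0-fold, 8.25 to 49.0), and Cebpa and Spic were at least 9.66-fold and 7.18-fold higher. In other-macrophage over T cell barcodes 3 of 4 were called higher, against 19.6% and 24%. There Cebpa was at least 12.6-fold higher, Nr1h3 stood at 144 and 10.3 CPM (13.9-fold, 3.80 to 115) and Id3 at 293 and 31.0 CPM (9.46-fold, 4.31 to 25.9).

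The profile of each gene over 7 sums (macroscopic hepatocyte and T cell, and the 5 early classes) was compared with 9888 genes by Pearson's r of log2(CPM + 10), as a description with no test. Foxa3 was the fourth most similar gene to Hnf4a (r = 0.997, n = 7 sums), behind Timeless, Creb3l3 and Spc24. Foxa2 was most similar to Cyp2d22, Chka, Atp9a, Mal2 and Elf3, and Nr1h3 to Saa3, Mapk14, Abca1, Slc8b1 and Gpx3. Spic was most similar to Ccl24, Angptl7, P2ry13, Cbr2 and Kcnj10, Cebpa to Slc39a11, Hebp1 and Pdia6, and Id3 to Tcf4 (r = 0.983). Among the 7 genes, Nr1h3 and Spic had r = 0.887, Hnf4a and Foxa2 r = 0.828, and Hnf4a and Spic r = -0.316. The 5 early sums come from 1 library, and the macroscopic sums from another, so these points share depth and preparation.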

How the data were processed

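UMI counts per gene and barcode, from a 10x 3' v3 kit per the labels, are whole numbers as deposited and were used unchanged. The submitters' processing notes list Cell Ranger 3.0.2, Seurat 2.3.0 and the mm10 build with no role for each, and the sources used here do not say how the authors chose barcodes. Barcodes needed at least 1000 UMIs and were placed by the raw-count gates given above. No doublet caller was run. Levels are CPM of UMIs summed over all barcodes of a class, and ratios use barcodes of 1 gate with at least 10 barcodes on each side. A gene was measured with at least 10 CPM in 1 sum and 20 UMIs over both sums together. Intervals are exact 95% (Poisson for CPM, conditional binomial for ratios, Clopper-Pearson for shares) and cover counting error only. Sums of 0 take a floor of 3 counts. The depth per library was 7260252 UMIs in the 241 macroscopic and 12202299 UMIs in the 2620 early barcodes kept, so that 1 UMI was 0.194 CPM in macroscopic and 1.07 CPM in early single-gate hepatocyte barcodes. With 1 library per stage no test was made. The 7 genes were all named. Of each context list, up to 4 measured genes with the highest CPM in the first class of a ratio could be named. The genes, lists and gates were chosen with earlier results of these data known. The interval code was tested on simulated Poisson counts. That test did not cover the floor of 3 counts for sums of 0. Alternatives were other gates, depth, mitochondrial and Malat1 limits, weighting, thinning, no minimum CPM and centring on the median. Computation used Python 3.11.15, numpy 2.4.6, scipy 1.17.1, pandas 2.3.3 and matplotlib 3.10.9.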

Additional observations from a re-analysis of the deposited data

Results flagged for a closer look

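Id3 stood in opposite directions between hepatocyte and T cell barcodes of the 2 libraries. The ratio was 0.161 (0.121 to 0.216) in macroscopic lesions, from 60.8 CPM in hepatocyte and 378 CPM in T cell barcodes, and 3.18 (1.41 to 8.89) in early lesions, from 98.6 and 31.0 CPM. The difference between libraries was not tested, since each stage has 1 library. In macroscopic T cell barcodes 1 of 20 barcodes held 37 of the 59 Id3 UMIs, and without it the level was 150 CPM (93.9 to 227) and the hepatocyte-over-T cell ratio 0.406 (0.263 to 0.657). In macroscopic over early T cell barcodes Id3 was 12.2-fold higher (5.28 to 34.6), against 12% of measured genes called higher, and 4.83-fold (1.90 to 14.6) without that barcode. The 8 endothelial markers stood at 108 CPM (1 UMI) in that barcode and 981 CPM in the 19 others, and their part in the Id3 level was not tested.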

How the results depend on the processing

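Across 10 comparisons of classes and 10 alternatives, 39 member ratios were called and 35 of them stayed past 2-fold in the same direction under every alternative that gave a value and 0 reversed. The other 4 were Foxa2 in early duct over hepatocyte barcodes (log2 ratio 0.64 relative to the median and 0.93 with barcodes of several gates), Foxa2 in hepatocyte over T cell barcodes of both libraries (lowest 0.96 macroscopic and 0.98 early) and Id3 in early hepatocyte over T cell barcodes (0.9991, just under 2-fold, with barcodes of several gates). Of 11 ratios not called, Cebpa in early duct over Kupffer barcodes passed 2-fold when thinned and relative to the median (-1.38), and Id3 in macroscopic over early hepatocyte barcodes with equal weight per barcode (-1.01). Thinning to 1000 UMIs per barcode, which sets barcodes to equal depth, gave values for only some of these ratios. In early duct over hepatocyte and in hepatocyte over T cell barcodes of both libraries it gave none. For ratios without a thinned value, the effect of equal depth was not tested. Of those with a thinned value, 14 were counted as moved from the main value and 7 as unchanged. The number of measured genes at least 2-fold different moved by over 1.5 times in 9 cases. With barcodes of several gates kept, it was 1564 against 2423 in Kupffer over other-macrophage barcodes. Thinned to 1000 UMIs per barcode, where fewer genes are measured, it was 2801 against 5149 for hepatocyte over Kupffer, 479 against 3843 for duct over hepatocyte, 3510 against 5560 for duct over Kupffer, 555 against 3723 for early hepatocyte over T cell, 892 against 3122 for other macrophage over T cell, 466 against 4560 for macroscopic hepatocyte over T cell, 394 against 2348 for macroscopic over early hepatocyte and 151 against 613 for macroscopic over early T cell barcodes. No paired analysis was possible because each stage has 1 library, and for the same reason no replicate could be left out. The macroscopic duct, Kupffer and other-macrophage classes were too small for ratios.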
